A study of Mus musculus with 10 samples.

Results

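Male mouse embryonic stem cells (mESCs) kept in suspension were compared with the same lines before the culture experiment began. The comparison was defined by the labels, and it took 6 of the 10 libraries of the series. These were the 4 libraries labelled New, which are replicates 1 and 2 at passage 10 (p10) and passage 20 (p20), and the 2 libraries of the starting cells (p0). The tests were not restricted to a set of genes, and every feature with a log2 value above 0 in at least 2 of the 6 libraries was tested, which left 11699 of 25965 features. All cells were male mESCs of the C57/Bl6 strain, grown in 2i medium with LIF, and they came from 2 independent lines, 1 for each replicate number. The lines were derived by the study's own suspension method, Keniry2022, in which cells have no attachment substrate and are passaged daily, and the p0 cells had therefore already been through a derivation in suspension. The remaining 4 libraries are of the same lines on gelatin (Mulas2019, labelled Old), and they serve below only as a further level beside named genes. By their labels the p10 and p20 libraries of 1 number come from 1 line, so the 4 Keniry2022 libraries are 2 lines sampled at 2 passages and not 4 independent derivations.

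The 2i medium blocks the ERK pathway and the kinase GSK3, and with LIF it holds mESCs in the naive state, the in vitro counterpart of the epiblast before implantation. Naive cells in 2i have low DNA methylation, because maintenance methylation is weakened and the de novo methyltransferase genes are repressed. Germline genes with CpG-rich promoters are normally silenced by DNA methylation and by repressors that bind their promoters, and imprinted genes carry methylation on 1 parental allele, so both groups are sensitive to the methylation state of a culture.

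The 2 p0 libraries stood apart from each other. The libraries held 24053995 and 27030258 reads at p0 and 28030995 to 29474720 under Keniry2022, of which 87.7% to 88.8% lay in features. Over the tested features the difference between the p0 libraries had an SD of 0.616 on the log2 scale, against 0.238 between the Keniry2022 p10 libraries and 0.266 between the p20 libraries. The difference followed exon length. Replicate 1 minus replicate 2 at p0 had a median log2 difference of 0.43 in the shortest 25% of features (exon length up to 1996 bases) and of -0.45 in the longest 25%, and the mean exon length of the features that took the reads was 4060 bases in the replicate 1 library of p0, 4754 in that of replicate 2 and 4788 to 4868 under Keniry2022. Long transcripts were thus low in p0 replicate 1 and short ones high, and whether RNA quality or library preparation had a part in this was not tested. The Y-linked genes Ddx3y, Eif2s3y, Kdm5d and Uty together had 132 and 8140 reads in the p0 libraries, 94 and 7929 in the p10 libraries, and 6659 and 48 in the p20 libraries labelled 1 and 2. The library labelled p20 replicate 1 therefore matched the line of replicate 2 in its Y-linked reads, and the reverse held for the library labelled p20 replicate 2. Y-linked reads were thus nearly absent from 3 of the 6 libraries, all of them labelled male, and p0 replicate 1 is among these.

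**Figure D1:**
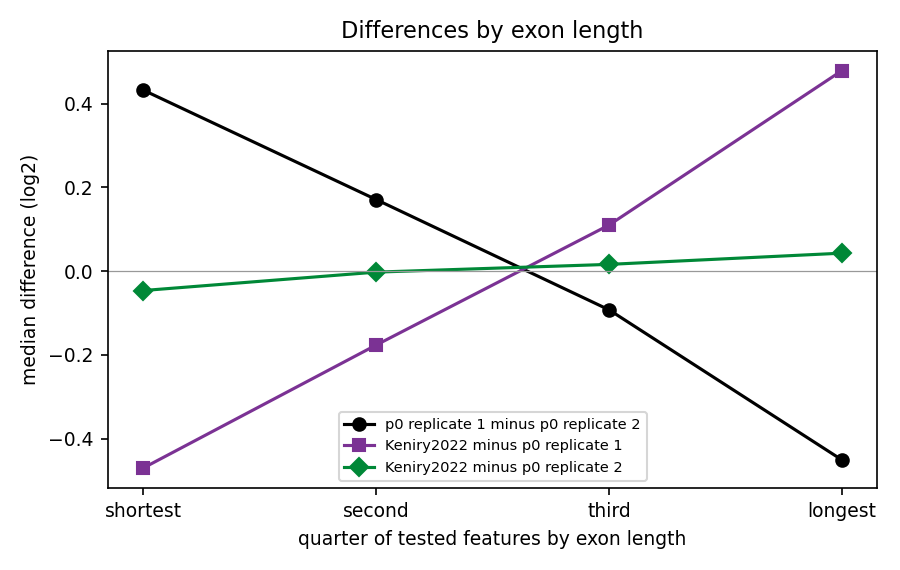
Median log2 difference (y axis) over the tested features in 4 equal classes of exon length, from shortest to longest (x axis), for p0 replicate 1 minus p0 replicate 2, for the Keniry2022 mean minus p0 replicate 1 and for the Keniry2022 mean minus p0 replicate 2. The lines with p0 replicate 1 run from 0.43 to -0.45 and from -0.47 to 0.48, while the Keniry2022 mean minus p0 replicate 2 stays between -0.05 and 0.04.

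Each feature was therefore compared with each p0 library separately as well as with both together. Against p0 replicate 1, 7422 of 11699 features (63.4%) passed limma's moderated test at an adjusted p of 0.05, 3674 higher (31.4%) and 3748 lower (32.0%). Against p0 replicate 2, 171 features (1.46%) passed, 78 higher (0.667%) and 93 lower (0.795%). In these fits the single p0 library is assumed to vary as the 4 Keniry2022 libraries do, and both fits use the same 4 libraries. With both p0 libraries as 1 group, only Gm12139 (0.00855% of features) passed, while 3225 features had an unadjusted p under 0.05 and 0 features passed with voom. The Keniry2022 mean lay between the p0 values for 36.9% of features, and it was nearer to p0 replicate 2 for 80.4%.

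A set of 127 features passed against each p0 library with the same sign, 50 higher (0.427% of those tested) and 77 lower (0.658%). In all 127 the 4 Keniry2022 libraries lay on one side of both p0 libraries, an arrangement shown by 2285 features above p0 (19.5%) and 2286 below (19.5%). The difference from the nearer p0 library was at least 0.5 on the log2 scale in 24 of the higher and 44 of the lower features. The higher features had a median exon length of 3124 bases and the lower ones of 1820, beside 3401 for all features tested. The count rested on single libraries. It was 27 without p10 replicate 1, 10 without p10 replicate 2, 399 without p20 replicate 1 and 0 without p20 replicate 2, and with differences corrected for exon length it was 123 (70 higher and 53 lower, 89 of them among the 127).

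**Figure D2:**
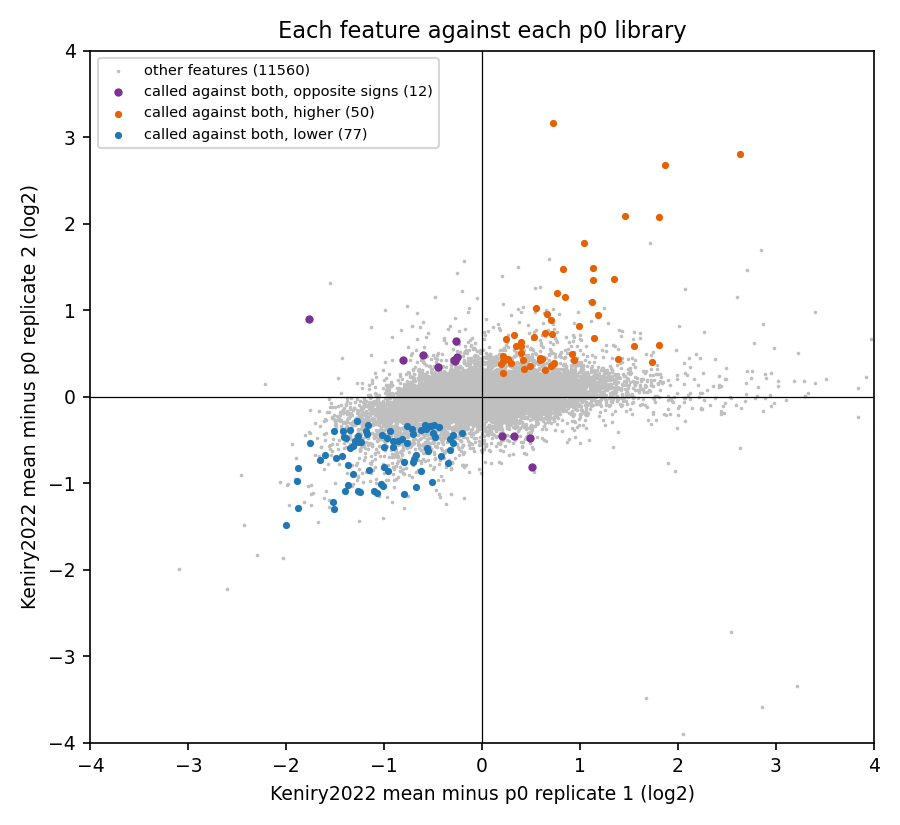
Keniry2022 mean minus p0 replicate 1 (x axis, log2) against Keniry2022 mean minus p0 replicate 2 (y axis, log2), 1 point for each of the 11699 features. The points spread further along the x axis than along the y axis. The 50 higher and 77 lower features called against both p0 libraries are coloured, as are the 12 called with opposite signs, and 8 features lie beyond the axis limits of 4.

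The de novo methyltransferase genes were higher in all 4 Keniry2022 libraries than in either p0 library. Dnmt3b (chr2:153649450-153687730, mm10, forward strand), which encodes the catalytic enzyme that sets methylation in the early embryo, had log2 RPKM values of 4.14 and 4.31 in p0 replicates 1 and 2, 4.94 and 5.22 in the p10 libraries and 5.20 and 5.13 in the p20 libraries. The lowest Keniry2022 library was above the higher p0 library. Dnmt3b rose by 0.99 ± 0.10 (SE) against p0 replicate 1 (adjusted p = 0.00016) and by 0.81 ± 0.10 against p0 replicate 2 (adjusted p = 0.026), and by 1.76-fold over the nearer p0 library. Dnmt3l, the cofactor of these enzymes without catalytic activity of its own, was at 4.31 and 4.12 at p0 and at 4.87 to 5.22 in the 4 Keniry2022 libraries, with p20 replicate 1 the lowest and p10 replicate 2 the highest. Its groups did not overlap either, with differences of 0.70 ± 0.12 (adjusted p = 0.0016) and 0.89 ± 0.12 (adjusted p = 0.028). Both genes passed in 12 of 16 alternative settings, and the span of each overlaps another feature. Both were also above the gelatin cultures, by 0.78 for Dnmt3b and 0.75 for Dnmt3l (adjusted p = 0.0001 and 0.00027, comparison of 4 with 4 libraries in which 51.5% of features passed).

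Of the 24 genes of the DNA methylation machinery that were listed, 23 were tested. These 2 were the ones called higher against both p0 libraries, with none called lower. Over all features the shares were 0.427% and 0.658%. The median difference of the list was 0.37 from p0 replicate 1 and 0.09 from p0 replicate 2, against -0.02 and 0.01 over all features, and with correction for exon length it was 0.04 and 0.03. Dnmt3a, the other catalytic de novo enzyme, had 0.78 (adjusted p = 0.00018) and 0.32 (adjusted p = 0.099), and all 4 Keniry2022 libraries were above p0. The maintenance enzyme Dnmt1 differed by 0.67 (adjusted p = 5.5e-05) and 0.14 (adjusted p = 0.20), and its partner Uhrf1 by 0.40 and 0.13. Tet1 and Tet2, which oxidise methylated cytosine, were 1.18 and 1.03 above p0 replicate 1 and within 0.04 of p0 replicate 2. For the maintenance enzymes and the Tet genes the result thus turned on which p0 library was the reference, and their differences from p0 replicate 2 did not pass.

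Imprinted genes held the largest number of calls among the lists, which differ in size. Over all features 0.427% were called higher and 0.658% lower against both p0 libraries. Of 68 listed, 43 were tested, and 5 were called higher (Mest, Peg3, Nespas, Zdbf2 and Zrsr1) and 1 lower (Cdkn1c) against both p0 libraries. The 5 higher ones are known to be expressed from the paternal allele, and Cdkn1c, a growth-restraining inhibitor of cyclin-dependent kinases, from the maternal allele. The median of the list was 0.17 from p0 replicate 1 and 0.01 from p0 replicate 2, so the list as a whole stayed near all features against p0 replicate 2. Zdbf2 and Zrsr1 were named after their values were seen, because the count was small.

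The start region of Mest is shown because Mest had the clearest difference of these genes. Mest (chr6:30723547-30748455, forward strand) encodes a hydrolase-like membrane protein, and its promoter is methylated on the maternal allele. RefSeq gives several starts for Mest, and the window shown is the one that overlaps no exon of the table. These 250 bases before the start (GRCm38.p6, chr6:30737800-30738049, forward strand) held 14 CG dinucleotides, in capitals here, and 29.4% of 32851 mouse promoters held as many or more.
Mest: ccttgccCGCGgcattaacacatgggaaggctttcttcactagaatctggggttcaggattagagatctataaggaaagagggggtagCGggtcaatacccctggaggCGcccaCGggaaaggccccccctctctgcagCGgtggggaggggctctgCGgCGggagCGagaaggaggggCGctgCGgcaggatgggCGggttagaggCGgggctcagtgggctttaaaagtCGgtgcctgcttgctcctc
Methylation was not measured in these libraries.

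Mest was at 3.47 and 3.16 log2 RPKM in p0 replicates 1 and 2, at 4.33 and 4.35 at p10 and at 4.21 and 4.35 at p20. The 4 Keniry2022 libraries lay close together and above both p0 libraries. Mest rose by 0.84 ± 0.08 against p0 replicate 1 (adjusted p = 7e-05) and by 1.15 ± 0.08 against p0 replicate 2 (adjusted p = 0.0051), and it passed in 14 of 16 alternative settings. Its gelatin level was lower, with a mean of 3.66 ± 0.07 (SD, n = 4) against 4.31 ± 0.07 (SD, n = 4).

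Peg3, a zinc finger gene, had 2.46 and 3.67 at p0, 4.17 and 4.32 at p10 and 4.15 and 4.43 at p20. Its level in p0 replicate 1 was by far the lowest of the 6, and its exon length of 13314 bases is among the longest. It rose by 1.81 against p0 replicate 1 and by 0.60 against p0 replicate 2 (adjusted p = 1.7e-05 and 0.050), and the call was lost with correction for exon length, where the differences were 0.95 and 0.53. Peg3 did not pass against the gelatin cultures, where its mean was 4.17 ± 0.09 (SD, n = 4). Nespas, an antisense RNA of the Gnas locus whose span overlaps another feature, had 0.22 and -0.22 at p0 and 0.92 to 1.04 under Keniry2022. Zdbf2, another long transcript, was 1.56 above p0 replicate 1 and 0.58 above p0 replicate 2. Zrsr1, which lies within an intron of Commd1, was 0.29 and 0.39 above them.

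Cdkn1c was at 2.00 and 1.99 at p0, at 0.70 and 0.75 at p10 and at 1.20 and 0.95 at p20. The p0 libraries were level with each other and above every Keniry2022 library. Cdkn1c fell by 1.10 ± 0.20 and 1.09 ± 0.20 (adjusted p = 0.002 and 0.050), from 89 to 207 reads per library, and lost the call with correction for exon length although the differences there were -0.82 and -1.05. Peg10, Plagl1, Snrpn and Impact, also expressed from the paternal allele and named after their values were seen, had all 4 Keniry2022 libraries above both p0 libraries and did not pass against p0 replicate 2. Peg10 was at -0.64 and 0.60 at p0 and at 1.58, 1.85, 2.66 and 2.15 under Keniry2022, with the p20 libraries the highest. The 43 tested imprinted genes had differences from p0 replicate 2 that ran from -1.12 to 1.46. Whether paternally and maternally expressed members moved apart was not tested over the list. Among maternally expressed genes, Igf2r was 1.20 above p0 replicate 1 and 0.05 above p0 replicate 2, and Phlda2 was 1.16 and 0.61 below them (adjusted p = 0.00016 and 0.061).

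The germline genes called against both p0 libraries were lower. Over all features 0.658% were called lower and 0.427% higher against both. Of 45 listed genes that are silenced by promoter methylation in somatic cells, 37 were tested, and 3 were called lower against both p0 libraries (Sycp3, Taf7l and Tex11) with none higher. The median of the list was -0.31 from p0 replicate 1 and -0.26 from p0 replicate 2, or -0.16 and -0.23 with correction for exon length. Of the 37, 12 had all Keniry2022 libraries below p0 and 5 above, beside 19.5% of all features in each direction. Differences of the 37 from p0 replicate 2 ran from -1.17 to 1.16, so some of these germline genes rose. Syce1, which was not on the list but belongs to the same meiotic structure as Sycp3, was among the 10 leading lower genes.

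The start regions of Sycp3 and Taf7l are shown because germline promoters are known to hold the E-box CACGTG and the E2F6-type motif GCGGGAA, bound by a Polycomb complex that represses these genes in mESCs. Both motifs were searched on both strands of the 250 bases before each RefSeq start. Sycp3 held CACGTG 2 times and GCGGGAA 1 time, and Taf7l held CACGTG 1 time. Of all promoters, 6.02% held CACGTG and 3.82% GCGGGAA, and Syce1 held neither. Matches are in capitals and both sequences are written 5′ to 3′ on the strand of the gene. The Sycp3 stretch (chr10:88459337-88459568, forward strand) ends at the first exon of the table's annotation, and the Taf7l stretch is chrX:134476491-134476740 on the reverse strand.
Sycp3: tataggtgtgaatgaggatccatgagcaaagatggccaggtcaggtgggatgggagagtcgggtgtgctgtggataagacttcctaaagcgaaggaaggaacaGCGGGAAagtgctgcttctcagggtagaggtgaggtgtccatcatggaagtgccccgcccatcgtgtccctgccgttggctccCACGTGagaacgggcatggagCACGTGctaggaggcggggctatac
Taf7l: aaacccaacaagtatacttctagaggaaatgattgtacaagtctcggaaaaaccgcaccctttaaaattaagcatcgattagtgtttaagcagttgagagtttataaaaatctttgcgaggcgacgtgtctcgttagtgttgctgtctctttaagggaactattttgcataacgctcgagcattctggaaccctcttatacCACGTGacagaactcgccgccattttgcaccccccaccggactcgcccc

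Sycp3, a lateral element protein of the synaptonemal complex, had log2 RPKM values of 4.91 and 3.98 at p0, 3.02 and 2.88 at p10 and 3.24 and 2.92 at p20. All Keniry2022 libraries were below both p0 libraries, and p0 replicate 1 was the highest. Sycp3 fell by 1.89 ± 0.13 against p0 replicate 1 and by 0.97 ± 0.13 against p0 replicate 2 (adjusted p = 2.4e-05 and 0.028). Taf7l, a germ cell paralogue of a general transcription factor subunit, was at 1.95 and 2.19 at p0 and at 1.25 to 1.45 under Keniry2022. It fell by 0.62 and 0.86 (adjusted p = 0.0031 and 0.032). Tex11, a meiotic gene on the X chromosome, was at 2.69 and 3.17 at p0 and at 2.01 to 2.29 under Keniry2022, and fell by 0.51 and 0.99 (adjusted p = 0.0082 and 0.026).

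Taf7l and Tex11 were higher in p0 replicate 2 than in p0 replicate 1, the reverse of Sycp3. Syce1, a central element protein of the synaptonemal complex, was at 4.97 and 4.64 at p0, at 4.24 and 4.04 at p10 and at 4.03 and 3.96 at p20. It fell by 0.91 and 0.58, and at 0.49 above the gelatin cultures it stood between them and p0. Sycp1 and Rhox6, called against p0 replicate 1 only, had differences of -0.78 and -0.94 from p0 replicate 2 (adjusted p = 0.072 for each). Xlr3c, of a multicopy X-linked family whose reads cannot be assigned with confidence, passed as higher against p0 replicate 2 only (0.95, adjusted p = 0.026).

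S100a1 and S100a13 led the decreases of the better expressed features (mean log2 of 3 or more), ranked by distance from the nearer p0 library. They encode small calcium-binding proteins, are neighbours on chromosome 3 and start head to head. In the table's annotation S100a1 (reverse strand) ends at 90514392 and S100a13 (forward strand) begins at 90514435. The stretch between the ends is printed because it belongs to the start regions of both genes, and it held 1 CG dinucleotide, in capitals.
Between S100a1 and S100a13 (chr3:90514393-90514434, GRCm38.p6, forward strand): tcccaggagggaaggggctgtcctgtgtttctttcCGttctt

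S100a1 was at 4.47 and 3.87 at p0, at 2.50 and 2.52 at p10 and at 2.89 and 2.45 at p20. S100a13 was at 4.86 and 4.56 at p0, at 3.28 and 3.48 at p10 and at 3.42 and 3.19 at p20. The groups overlapped in neither gene, and the gap to the nearer p0 library was wider than the range of the 4 Keniry2022 libraries. S100a1 fell by 1.88 ± 0.16 and 1.28 ± 0.16 (adjusted p = 5.4e-05 and 0.026), which is 2.43-fold from the nearer p0 library. S100a13 fell by 1.52 ± 0.11 and 1.22 ± 0.11 (adjusted p = 3.1e-05 and 0.014), or 2.33-fold.

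The levels of S100a1 and S100a13 under Keniry2022 did not pass against those on gelatin, which averaged 2.88 ± 0.30 and 3.08 ± 0.26 (SD, n = 4). Of the other 4 tested S100-named genes none was called against both p0 libraries. S100a10, S100a11 and S100a6 were 0.72, 0.51 and 0.51 below p0 replicate 1, with differences of 0.02, 0.27 and -0.12 from p0 replicate 2. S100pbp, which encodes a binding partner and no S100 protein, was 0.75 above p0 replicate 1 and 0.01 below p0 replicate 2.

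**Figure D3:**
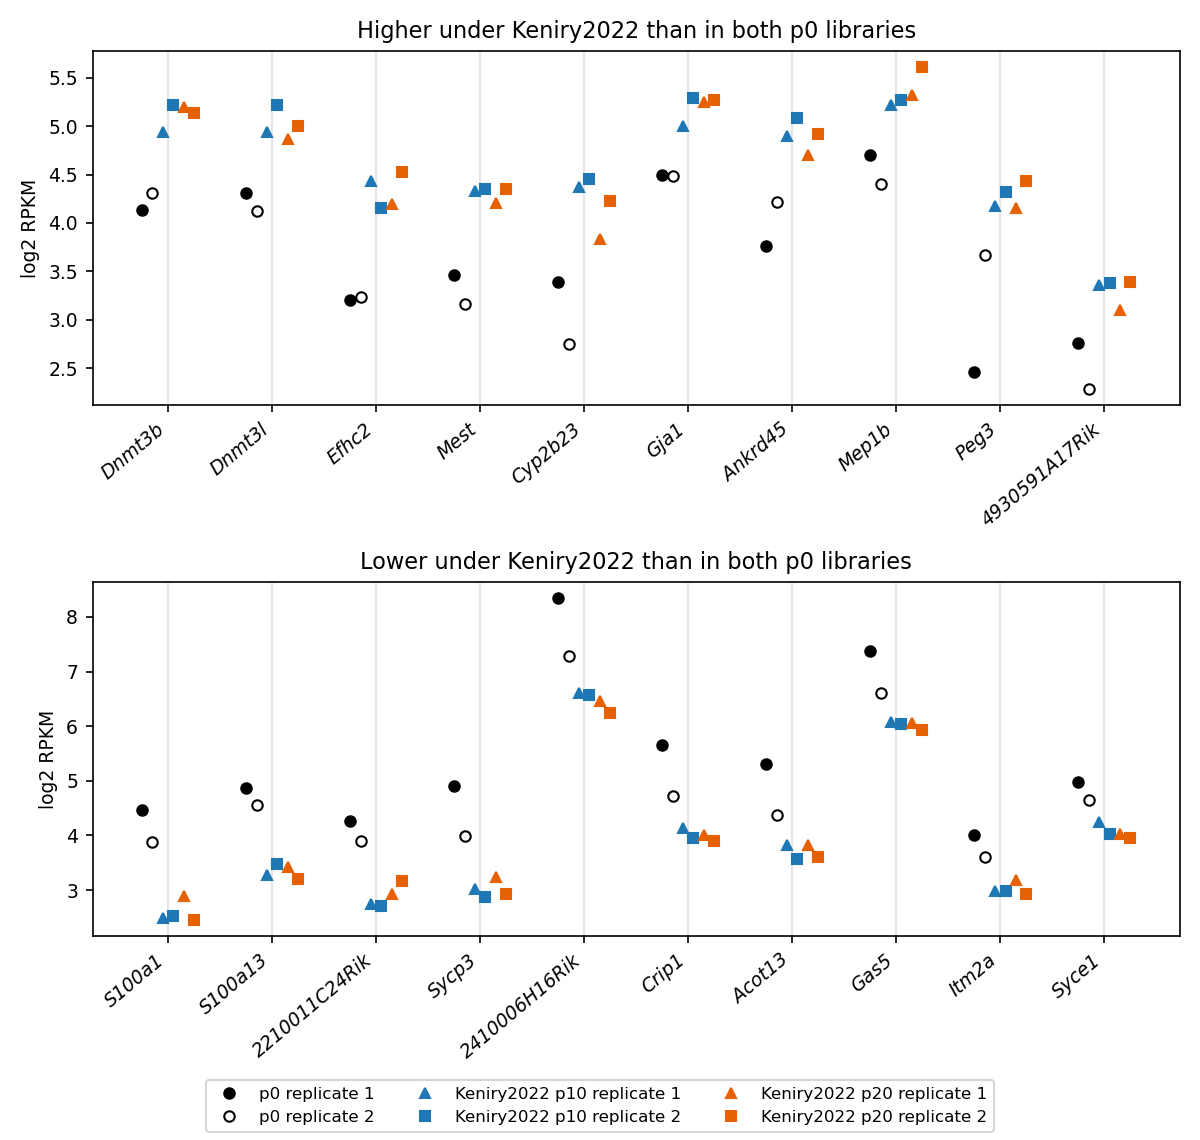
log2 RPKM (y axis) of the 10 leading higher genes (upper panel) and the 10 leading lower genes (lower panel) in each of the 6 libraries, with p0 as circles, p10 in blue, p20 in orange, replicate 1 as triangles and replicate 2 as squares. In every gene the 4 Keniry2022 points lie on one side of both p0 points, and in Peg3, Sycp3, 2410006H16Rik, Crip1 and Acot13 the p0 points themselves are far apart.

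The other leading higher genes were of mixed function. Efhc2, an X-linked gene for an EF-hand protein of the ciliary axoneme, was at 3.20 and 3.23 in the p0 libraries and at 4.43, 4.15, 4.19 and 4.53 under Keniry2022. It rose by 1.12 ± 0.14 and 1.10 ± 0.14 (adjusted p = 0.00034 and 0.026), or 2.14-fold, with the p0 libraries level. Gja1, the gap junction protein connexin 43, was at 4.49 and 4.48 at p0 and at 5.01, 5.29, 5.25 and 5.27 under Keniry2022. It rose by 0.71 and 0.72, and by 0.95 over the gelatin cultures (adjusted p = 0.00038). In Efhc2 and Gja1 the p0 libraries were nearly equal, so both references gave nearly the same difference. Cyp2b23, a cytochrome P450 gene, rose by 0.83 and 1.47, Ankrd45 by 1.14 and 0.68, Mep1b, a metalloprotease subunit, by 0.66 and 0.95, and the noncoding 4930591A17Rik by 0.55 and 1.02.

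Among the other leading lower genes, Gas5, a noncoding host of small nucleolar RNAs whose transcript is degraded when translation proceeds, was at 7.38 and 6.62 at p0, at 6.08 and 6.04 at p10 and at 6.06 and 5.93 at p20. It fell by 1.35 ± 0.07 and 0.59 ± 0.07 (adjusted p = 1e-05 and 0.026), on 6744 or more reads per library. Crip1, a small LIM domain protein, fell by 1.66 and 0.73. Acot13, a mitochondrial thioesterase, fell by 1.61 and 0.68. The noncoding 2410006H16Rik fell by 1.88 and 0.82 and the protein-coding 2210011C24Rik by 1.37 and 1.02. Itm2a, a membrane protein, was at 4.01 and 3.60 at p0 and fell to 2.93 to 3.18. All these decreases were larger against p0 replicate 1 than against p0 replicate 2. The exon lengths ran from 445 bases in Crip1 to 1744 in Itm2a except for Gas5. Gas5 had an exon length of 3760, and its span overlaps another feature. With correction for exon length the calls of 2210011C24Rik and Itm2a were lost, with differences of -0.91 and -0.94 for 2210011C24Rik and of -0.68 and -0.54 for Itm2a.

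The core pluripotency factors gave no call against p0 replicate 2. Pou5f1, which encodes OCT4, was at 9.23 and 8.71 at p0, at 8.85 and 8.81 at p10 and at 8.64 and 8.67 at p20, and the Keniry2022 libraries overlapped p0 replicate 2. It was 0.49 below p0 replicate 1 (adjusted p = 0.002) and 0.04 ± 0.09 above p0 replicate 2 (adjusted p = 0.83). Sox2 was at 7.80 and 7.56 at p0 and at 7.52 to 7.70 under Keniry2022. Nanog was at 9.10 and 9.04 at p0 and at 9.02, 8.89, 8.81 and 8.78 under Keniry2022, all below p0, with differences of -0.23 and -0.16 that did not pass (adjusted p = 0.059 and 0.32). Esrrb, an orphan nuclear receptor of the naive network, was within 0.01 of p0 replicate 2 and 0.20 above p0 replicate 1 (adjusted p = 0.011). Zfp42, Prdm14 and Tfcp2l1 were within 0.11 of p0 replicate 2, and differed by -0.13, -0.19 and 1.14 from p0 replicate 1, where Tfcp2l1 passed (adjusted p = 3.7e-05). These genes have high read counts, 1550 or more per library, and missing the threshold does not show that they were level.

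Klf4, which LIF and STAT3 drive, had its 4 libraries (5.46, 5.42, 5.18 and 5.23) below both p0 libraries (5.78 and 5.58). It passed against p0 replicate 1 (-0.45, adjusted p = 0.0091) and not against p0 replicate 2 (-0.26, adjusted p = 0.21). Of the 18 naive pluripotency factors, all tested, none was called against both p0 libraries, 7 were called higher and 6 lower against p0 replicate 1, and none was called against p0 replicate 2. Over all features 31.4% were called higher and 32.0% lower against p0 replicate 1, and 1.46% were called against p0 replicate 2. The summed level of the 18 factors was 2243 and 1982 RPKM at p0 and 1871 to 2070 under Keniry2022. All 18 of these mESC factors passed the filter on low values.

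Of 24 further naive state markers, 1 was called against both, as lower, beside 0.658% of all features. This was Dppa5a, which encodes an RNA-binding protein abundant in naive cells. It was at 11.58 and 10.79 at p0 and at 10.44, 10.38, 10.40 and 10.33 under Keniry2022. All 4 lay below p0 and close together. Dppa5a fell by 1.19 ± 0.06 and 0.40 ± 0.05 (adjusted p = 8.7e-06 and 0.028). Dppa3, which protects oocyte and naive cell DNA from methylation, was at 6.87 and 5.83 at p0 and at 5.52, 5.34, 5.90 and 5.54 under Keniry2022, and it overlapped p0 replicate 2. Fgf4, the ERK ligand that mESCs make, was at 6.90 and 6.91 at p0 and at 6.70 to 6.77 under Keniry2022, and its differences of -0.18 and -0.19 passed against p0 replicate 1 only (adjusted p = 0.018 and 0.10). Tdh, the threonine dehydrogenase of mESC metabolism, was at 7.34 and 6.88 at p0 and lay between these values in all 4 libraries.

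**Figure D4:**
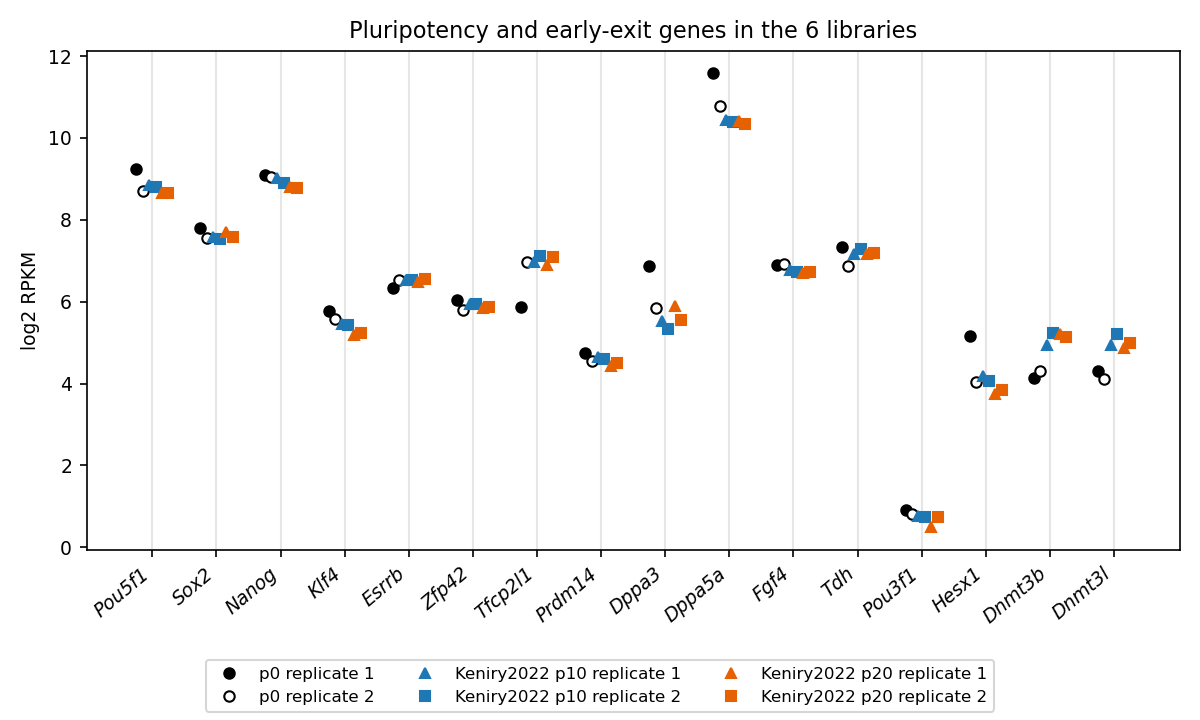
log2 RPKM (y axis) of 16 pluripotency and early-exit genes in the 6 libraries, with the symbols of the plot of leading genes. Dnmt3b and Dnmt3l are the ones with all 4 Keniry2022 points above p0. In Dppa5a, Nanog, Klf4, Fgf4 and Pou3f1 all 4 lie below p0, while Pou5f1, Sox2, Zfp42 and Prdm14 overlap the range of p0.

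Formative and primed markers are genes that rise when cells leave the naive state. Of 25 listed, 20 were tested, with 9 called higher and 2 lower against p0 replicate 1, where 31.4% of all features were called higher and 32.0% lower. All Keniry2022 libraries lay above both p0 libraries in 8 of the 20 and below them in 3, beside 19.5% of all features in each direction, and those called higher against both p0 libraries included Dnmt3b and Dnmt3l, described above, with none lower. Of all features, 0.427% were called higher and 0.658% lower against both. The list had a median of 0.14 from p0 replicate 1 and 0.12 from p0 replicate 2, and of -0.00064 and 0.13 with correction for exon length. The primed genes Otx2 and Fgf5 were below the filter, with 38 to 71 and 7 to 15 reads per library, and were not tested. Pou3f1 was at 0.90 and 0.81 at p0 and at 0.50 to 0.76. Hesx1 was 1.21 below p0 replicate 1 and 0.09 below p0 replicate 2. Lin28a, an RNA-binding inhibitor of let-7 processing, was above p0 in all 4 libraries, by 0.74 and 0.68 (adjusted p = 0.0028 and 0.061).

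Signalling lists gave few calls, where 0.427% of all features were called higher and 0.658% lower against both p0 libraries. Of 22 tested ERK feedback and immediate early genes none was called against both p0 libraries, and the median was -0.18 and -0.10. Etv1, an ETS factor that ERK induces, was at 0.36 and 0.59 at p0 and at 1.15, 1.14, 0.94 and 1.13 under Keniry2022, and Dusp9, an ERK phosphatase, was 0.34 and 0.31 below p0. Both passed against p0 replicate 1 only. Of 13 tested WNT targets none was called against both. All Keniry2022 libraries lay above p0 in 5 and below it in 1, beside 19.5% of all features in each direction. The median of the WNT targets was 0.37 and 0.19. Lef1, a nuclear partner of beta-catenin, was at 2.08 and 2.17 at p0, at 2.56 and 2.58 at p10 and at 3.19 and 3.02 at p20, the p20 libraries being the highest. Ccnd1 was 0.33 and 0.23 above p0. Of 21 tested LIF and STAT3 genes, the feedback inhibitor Socs3 was called lower, at 5.41 and 5.62 at p0 and 5.16 to 5.25 under Keniry2022 (-0.21 and -0.41, adjusted p = 0.017 and 0.032), and lost the call with correction for exon length.

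Genes of attachment were examined because the cells had no substrate. The p0 cells had also been derived in suspension, so the comparison does not set attached cells against unattached ones. Of 26 tested integrins and basement membrane genes none was called against both p0 libraries. Their median was 0.51 from p0 replicate 1 and -0.0016 from p0 replicate 2, and 0.15 and 0.0049 with correction for exon length, in a list whose median exon length was 6919.5 bases. Itgb5, a vitronectin-binding integrin subunit, was at 4.31 and 4.32 at p0 and at 4.65, 4.84, 4.73 and 4.85 under Keniry2022 (0.45 ± 0.09 and 0.44 ± 0.09, adjusted p = 0.0027 and 0.055). Lama3, a laminin chain, was 0.84 and 0.45 above p0 (adjusted p = 0.00086 and 0.11). Of 26 tested cell junction and epithelial genes 1 was called against both, as higher, beside 0.427% of all features. This was the adhesion molecule Epcam, at 5.13 and 4.95 at p0 and at 5.42 to 5.60 under Keniry2022. It rose by 0.40 ± 0.08 and 0.58 ± 0.08 (adjusted p = 0.0033 and 0.028). Its level on gelatin, 5.41 ± 0.04 (SD, n = 4), was 0.12 below that in suspension, which did not pass (adjusted p = 0.055). Of 28 tested YAP and SRF cytoskeletal targets none was called against both. Anxa1 and Tagln2, which bind membranes and actin, were 0.82 and 0.78 below p0 replicate 1 and 0.73 and 0.54 below p0 replicate 2 (adjusted p = 0.067 and 0.057 for the latter), with all 4 libraries below p0.

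Nuclear-encoded oxidative phosphorylation genes were lower than p0 replicate 1 almost throughout. Of 74 tested, 68 were called lower and 2 higher against p0 replicate 1, and against p0 replicate 2 none was called higher and 1 lower. Over all features 32.0% were called lower and 31.4% higher against p0 replicate 1, and 0.795% and 0.667% against p0 replicate 2. All 4 Keniry2022 libraries lay below both p0 libraries in 47 of the 74 and above them in 1. Over all features this held for 19.5% in each direction. The median was -0.81 from p0 replicate 1 and -0.12 from p0 replicate 2, and -0.44 and -0.07 with correction for exon length. These are short transcripts, with a median exon length of 1304.5 bases, and the part of length in the difference from p0 replicate 1 was not tested beyond that correction. Ndufv2, a complex I subunit, was at 7.81 and 6.82 at p0 and at 6.56, 6.53, 6.53 and 6.52 under Keniry2022, and fell by 1.28 and 0.28 (adjusted p = 6.6e-06 and 0.048). It was the one called against both, beside 0.658% of all features called lower. With correction for exon length, at -1.01 and -0.25, it lost the call.

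Other metabolic and stress lists moved less. Hypoxia and glycolysis genes (37 tested) had no call against both p0 libraries and medians of 0.05 and -0.13. Sterol biosynthesis genes (31 tested) had none either, with 18 called higher and 4 lower against p0 replicate 1 (31.4% and 32.0% of all features), none against p0 replicate 2 and medians of 0.34 and 0.05. Sqle, an enzyme of the pathway, was above p0 in all 4 libraries, with 0.26 over p0 replicate 2 (adjusted p = 0.076). Of 35 tested ATF4 and integrated stress response genes 1 was called higher and 1 lower against both, beside 0.427% and 0.658% of all features. Sesn2, a stress-induced inhibitor of mTORC1 that was also the only call among 27 tested p53 targets, rose by 0.22 and 0.42 (adjusted p = 0.0091 and 0.026). Cth, which makes cysteine, fell by 0.76 and 0.34 (adjusted p = 3.1e-05 and 0.047).

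Of 25 tested NRF2 antioxidant genes none was called against both. Gclc and Txnrd1 were 0.46 and 0.71 above p0 replicate 1, and 0.33 and 0.20 above p0 replicate 2 with an adjusted p of 0.092 for each. Of 26 tested heat shock and chaperone genes the HSP110 chaperone Hsph1 was called higher, at 5.72 and 6.06 at p0 and at 6.40 to 6.53 under Keniry2022 (0.73 and 0.39, adjusted p = 6.4e-05 and 0.044). Among 23 tested G1 cyclins and CDK inhibitors, Cdkn1b and Cdkn1c were called lower and none higher, beside 0.658% and 0.427% of all features. Cdkn1b was at 3.25 and 3.48 at p0 and at 2.91 to 2.99 under Keniry2022, and fell by 0.30 and 0.53 (adjusted p = 0.0085 and 0.028). On gelatin Cdkn1b was higher, at 3.49 ± 0.10 (SD, n = 4). Among 36 tested lysosome and autophagy genes, the membrane protein Lamp2 fell by 0.30 and 0.45 (adjusted p = 0.011 and 0.047).

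Among 15 tested interferon and antigen presentation genes, Ddx58, the RNA sensor RIG-I, was called higher against both, beside 0.427% of all features. It was at 1.70 and 1.60 at p0 and at 2.31, 2.52, 2.27 and 2.27 under Keniry2022, and rose by 0.64 and 0.74 (adjusted p = 0.0023 and 0.044). With correction for exon length it lost the call, at 0.21 and 0.72. On gelatin Ddx58 was at 0.91 ± 0.23 (SD, n = 4), below both. Replication-dependent histone genes, whose mRNAs mostly lack a poly(A) tail, had no call against both, but 14 of 17 tested had all Keniry2022 libraries below p0, beside 19.5% of all features. Their summed level was 88.6 and 58.5 RPKM at p0 and 36.8 to 45.5 under Keniry2022, with median differences of -1.12 and -0.58. These are short transcripts, with a median exon length of 491 bases, and the medians were -0.69 and -0.50 with correction for exon length. Hist1h4d was at 2.51 and 1.80 at p0 and at 0.69, 0.82, 0.63 and 0.05, on 12 to 54 reads. Of 8 tested members of a list of noncoding RNAs, Gas5, described above, was the 1 called against both. The list had medians of -0.92 from p0 replicate 1 and -0.10 from p0 replicate 2 with correction for exon length.

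**Figure D5:**
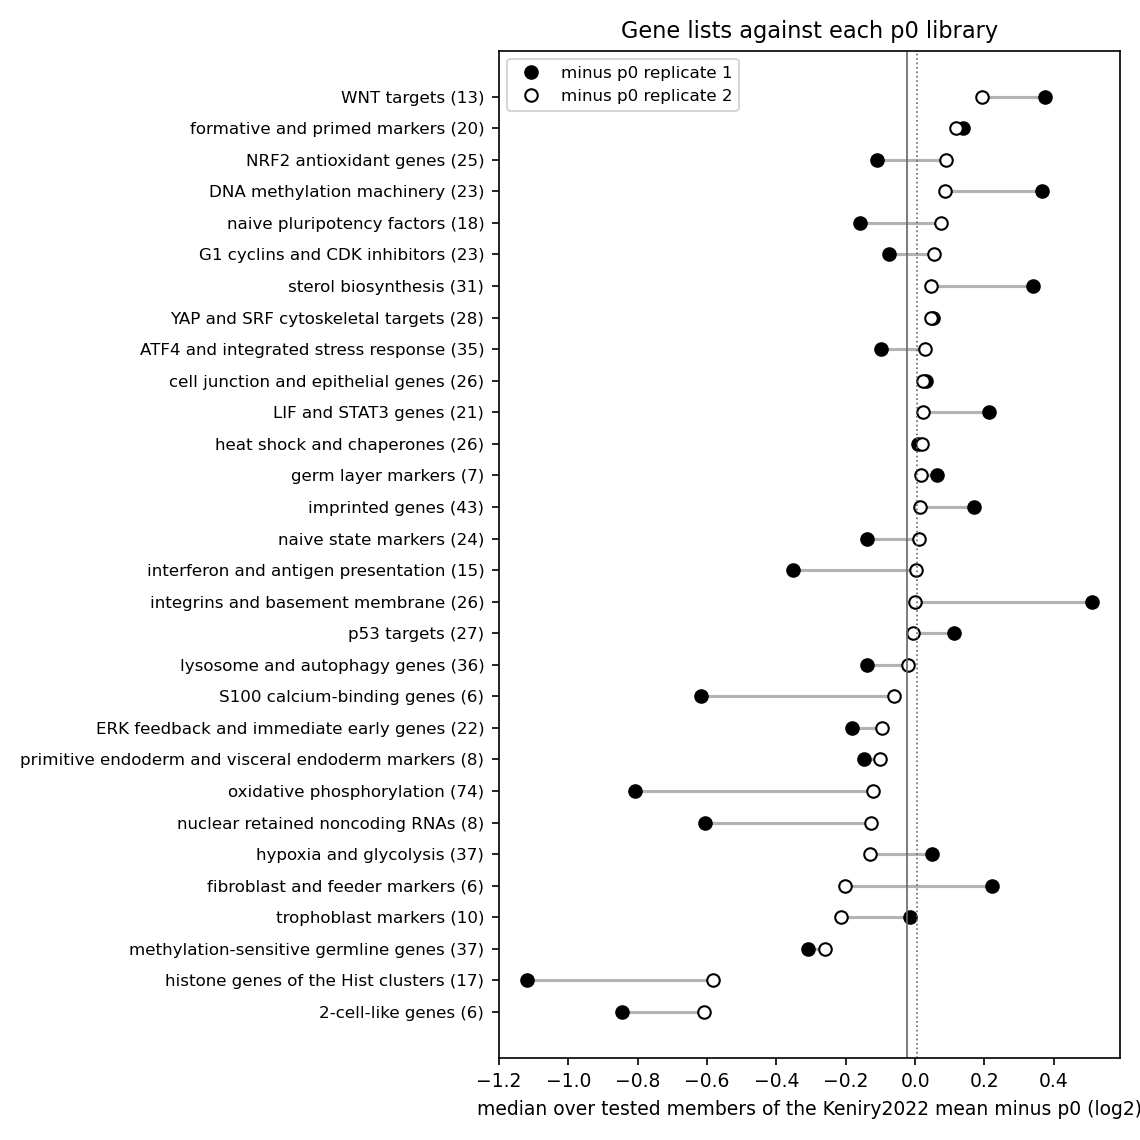
Median log2 difference (x axis) of the Keniry2022 mean from p0 replicate 1 (filled) and from p0 replicate 2 (open) over the tested members of each list (y axis, number of members in brackets), for lists with at least 6 tested members. The vertical lines are the medians over all features, -0.02 (solid) and 0.01 (dotted). The oxidative phosphorylation genes, the integrins and the S100 genes are far from zero against p0 replicate 1 alone, while the histone, 2-cell-like and germline genes are below zero against both. Some members, such as Zscan4d of the 2-cell-like list, passed the filter through their p0 values alone.

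Markers of other cells gave no call against both p0 libraries. Of 25 primitive and visceral endoderm markers 8 were tested, with summed levels of 505 and 424 RPKM at p0 and 367 to 388 under Keniry2022. The defining factors Gata4, Gata6 and Sox17 were at 48 to 66, 15 to 27 and 11 to 39 reads per library. Srgn and Lrp2 were the members with the smallest p. At log2 values of at most 0.50 and 0.96 in the 6 libraries they made up little of these sums. The members that did are not named here, so the sums are no measure of endoderm cells. Srgn was 0.75 and 1.14 below p0 and Lrp2 2.27 and 0.74 above it, with neither passing against p0 replicate 2. Of 20 trophoblast markers 10 were tested, with summed levels of 49.4 and 52.1 RPKM at p0 and 53.6 to 55.8 under Keniry2022. Cdx2 had 8 to 30 reads. Peg10, described above, was 2.70 and 1.46 above p0, and Esx1 was 0.71 and 0.68 below it on 43 to 75 reads. Of 30 germ layer markers 7 were tested, with sums of 116 and 93.9 RPKM at p0 and 108 to 117 under Keniry2022. Gsc, a mesendoderm factor, was at 3.68 and 2.88 at p0 and at 2.44, 2.11, 1.93 and 1.94 under Keniry2022, and Tubb3, a neuronal tubulin that mESCs also express, was 0.06 and 0.38 above p0. Of 24 fibroblast and feeder markers 6 were tested, with sums of 108 and 90.4 RPKM at p0 and 102 to 148 under Keniry2022. Col1a1 had 29 to 55 reads, and Igfbp7 and Twist1 were below p0 in all 4 libraries on 27 to 97 and 27 to 76 reads. Differences of the 6 tested members ran from -1.78 to 0.67 for p0 replicate 1 and from -1.03 to 0.60 for p0 replicate 2. Of 23 genes of the 2-cell-like state 6 were tested, all with a mean below both p0 values. All 4 libraries lay below p0 in 5 of them, beside 19.5% of all features. Zscan4d was at 1.15 and 0.52 at p0 and at -0.23 to -0.02 under Keniry2022, and Gm5662 was 0.66 and 0.73 below p0, neither passing against p0 replicate 2. Fewer cells in the 2-cell-like state and less RNA per cell cannot be told apart in bulk libraries. Srgn, Esx1, Igfbp7, Twist1 and Zscan4d would not have passed the filter on low values without their p0 values. Lrp2 passed it through its Keniry2022 values alone. The directions of these members were thus partly set by the filter, and the counts below p0 are not independent of it.

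A further 12 features passed against both p0 libraries with opposite signs, so that the Keniry2022 mean lay between 2 p0 libraries that differed from it significantly on either side. In 8 of them p0 replicate 1 was the highest and in 4 the lowest. Rpl39l, a testis-biased ribosomal protein paralogue, was at 7.21 and 6.12 at p0 and at 6.49 to 6.73 under Keniry2022. Akr7a5, an aldehyde reductase, was at 4.42 and 3.61 at p0 and at 3.94 to 3.99. Gc, the vitamin D-binding protein, was at 4.01 and 2.77 and at 3.16 to 3.28. Cenpm, a centromere protein, was at 6.91 and 6.20 and at 6.56 to 6.71. Gm17232 was at 4.34 and 3.64 and at 3.98 to 4.11. Its span overlaps that of Tdh on the other strand, and whether their reads were kept apart is not known. In the other direction Reep1 was at 2.70 and 3.48 at p0 and at 2.96 to 3.08, and Acacb, an acetyl-CoA carboxylase, at 2.83 and 3.49 and at 3.01 to 3.08. For such genes the choice of the p0 library decided the direction.

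Gm12139, the 1 feature that passed with both p0 libraries as 1 group, was at -0.85 and -1.02 at p0 and at 1.59, 1.96, 1.61 and 1.99 under Keniry2022. It was 2.72 ± 0.17 higher (adjusted p = 0.014), on 5 to 44 reads per library, and the call was lost when any Keniry2022 library was left out. Both p0 values were below the filter level of 0, so Gm12139 was tested through its Keniry2022 values alone. With the labelled replicate number as a block 3 features passed, 1 higher and 2 lower, and with the p20 numbers crossed 1 passed. A single feature cannot be tested further by regrouping the libraries, because 4 against 2 allows 15 splits and the exact permutation p cannot go below 0.0667.

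Set beside the gelatin cultures of the same lines, the 127 features were not all particular to suspension. Of the 50 higher features, 49 were tested between the methods, and 26 were higher under Keniry2022 than under Mulas2019 and 4 lower (51.5% of all features passed in this comparison). Of the 77 lower features, 25 were lower under Keniry2022 than under Mulas2019 and 21 higher. Peg3, Epcam and 4930591A17Rik did not pass between the methods, while Dnmt3b, Dnmt3l, Mest and Gja1 were higher in suspension. The Mulas2019 libraries also come from the 2 lines at p10 and p20, with passages spaced further apart in time, so the passage numbers are the same and the days of culture differ between the methods.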

How the data were processed

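The deposited table holds 1 log2 value per feature and library. The authors, per the study, trimmed single-end reads of 75 bases, aligned them to mm10 with HISAT2 and quantified them in SeqMonk, whereas bcl2fastq and TopHat2 2.0.12 are listed in the submitters' processing notes, so the aligner is uncertain. The strandedness of counting was not stated. The table is named logCPM, but its log2 values are RPKM, since features with 0 reads sit at a floor of 0.9 reads scaled by length. Exon lengths and whole reads were recovered from these values (100% whole within 0.1 reads), though the lengths of 9505 features were found by a search for whole reads and are no check of it, giving totals of 24053995 to 29474720 reads in the 6 libraries. The spans of 7479 of 25965 features overlap another feature, and whether their exons overlap was not tested. A name is shared by 124 features, and 6624 had no reads. No value column was unused.

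Tests used limma 3.58.1 in R 4.3.3 on the deposited log2 values (eBayes with an intensity trend, two-sided, Benjamini-Hochberg over all features tested, threshold 0.05), without a pseudocount beyond the floor. Features needed a log2 value above 0 in at least 2 of the 6 libraries. A feature could therefore enter through 1 group alone, as Zscan4d did through p0 and Gm12139 through Keniry2022. The study's own rule of presence in at least 50% of the samples drops features seen at p0 only and is an alternative. The fits were 4 against 2, 4 against each p0 library, and 4 Keniry2022 against 4 Mulas2019. The code was tested on simulated data.

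Named genes were a panel of pluripotency genes, the 10 leading higher and 10 leading lower features with a mean log2 of at least 3 called against both p0 libraries (by distance from the nearer one), the leading features of opposite sign, and per list up to 4 called members or the 2 with the smallest p. Other genes given by value were chosen after their values were seen, and some genes that the rule names are not reported here. The members of 31 lists and the comparison were chosen with earlier results of these data known. Length correction removed a natural spline of log2 exon length (5 degrees of freedom) from each library's deviations, and was added after the data were seen.

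By the labels, replicate numbers mark the same line, but Y-linked reads were crossed in the p20 libraries. Deviations from the group mean correlated across features at 0.27 between p0 and p10, -0.11 between p0 and p20 and -0.46 between p10 and p20. Promoters are from RefSeq (GRCm38.p6), and the 6 genes whose promoters were searched were matched, while Tex11, Nespas and Cdkn1c had no entry in the table used here.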

Additional observations from a re-analysis of the deposited data

Results flagged for a closer look

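Among the 84 named genes, 8 had 1 Keniry2022 library far from the other 3, by Dixon's test at the 95% level, and chance alone marks about 1 in 20 groups. The library labelled p20 replicate 1 was low in Pou3f1 (log2 RPKM 0.50, others 0.74 to 0.76), Mest (4.21, others 4.33 to 4.35), 4930591A17Rik (3.10, others 3.36 to 3.39) and Etv1 (0.94, others 1.13 to 1.15), and high in S100a1 (2.89, others 2.45 to 2.52). The p10 replicate 1 library was low in Gja1 (5.01, others 5.25 to 5.29), p10 replicate 2 was high in Ddx58 (2.52, others 2.27 to 2.31) and p20 replicate 2 was high in Acacb (3.08, others 3.01 to 3.02). In each of these genes called against both p0 libraries with the same sign, the distant library still lay on the same side of p0 as the others.

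Zfp42, a naive marker, had a p10 mean 0.03 above the p0 mean and a p20 mean 0.06 below it, with both libraries of each passage on the same side, a difference of -0.092 on the log2 scale between the passages that was not tested.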

How the results depend on the processing

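The single call with both p0 libraries as 1 group became 3 with a pseudocount of 1, 2 with no filter, 9 without an intensity trend, 26 with length correction, 125 in a model of all 10 libraries and 0 with a log2 filter of 2, quantile normalisation, voom, library quality weights, p10 only or p20 only. It ranged from 0 to 7422 over the libraries left out (171 without p0 replicate 1, 7422 without p0 replicate 2). With the replicate block it was 3, with block and length correction 33, and with the p20 numbers crossed 1. For Keniry2022 against p0 replicate 2 the 171 calls became 0 with no filter, 95 with quantile normalisation, 22 without a trend, 364 with voom, 1349 with p10 only and 107 with p20 only, and 0 to 563 with 1 library left out. Calls against both with the same sign (127) became 0, 72, 20, 269 and 863 under no filter, quantile normalisation, no trend, voom and p10 only, and 0 to 399 with 1 library left out. Of the 127, 118 were called with voom and 69 with quantile normalisation, and under each of these alternatives no call on either side turned its direction. Calls with opposite signs (12) became 0 with no filter, 2 with quantile normalisation, 1 without a trend, 5 with length correction, 173 with p10 only and 1 with p20 only, and 0 to 44 with 1 library left out. For Keniry2022 against p0 replicate 1 there were 5875 to 7877 calls and for Keniry2022 against Mulas2019 5067 to 5999 in the alternatives, each within 1.5 times the reported count.

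Among 2347 values of 75 named genes under the alternatives, 2081 kept direction and side of the threshold, 148 newly passed, 100 no longer passed and 18 turned direction, none of the last past the threshold. With quantile normalisation the difference from p0 was 0.091 for Pou5f1, 0.12 for Sox2, 0.15 for Nanog, 0.11 for Zfp42 and 0.0021 for Fgf4. With length correction, with or without the replicate block, it was 0.016 for Sox2, -0.075 for Esrrb and 0.16 for Zfp42. With p0 replicate 1 or p0 replicate 2 left out, in that order, it was 0.036 and -0.49 for Pou5f1, 0.036 and -0.20 for Sox2, -0.0083 and 0.20 for Esrrb, 0.11 and -0.13 for Zfp42 and 0.31 and -0.15 for Tdh, and Zfp42 had 0.032 with p10 only and 0.0054 without p20 replicate 1. The cause was not tested. The fits with 1 p0 library have no spread of p0 of their own, the 4 Keniry2022 libraries come from 2 lines, and totals of 24053995 to 29474720 reads leave genes with few reads, such as Hist1h4d and Gm12139, imprecise.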
